A study of Mus musculus with 7 samples.

Results

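Chromatin accessibility was examined at 9 genes of fetal liver and of imprinted growth control in young and aged mouse liver. The genes were Afp, H19, Igf2, Dlk1, Meg3, Peg3, Plagl1, Lin28b and Igf2r, and the name Zac1, also on the list, is a RefSeq synonym of Plagl1. ATAC-seq, in which a transposase inserts sequencing adapters into exposed DNA, had been run on 3 liver samples of mice aged 3 months (young) and 4 of mice aged 18 months (aged). All were male C57BL/6N mice, with no treatment, transgene or deletion given in the labels, and nuclei came from whole liver tissue. The deposited design traces the 4 aged samples to 3 animals, 1 of which gave 2 lobules, and does not say which 2 samples share an animal, so p-values measure the spread between samples and may in part be technical. A region was taken as belonging to a gene when it overlapped the gene body or the 10 kb on either side (GENCODE M21, GRCm38), which gave 21 of the 55680 consensus regions. Counts in all regions summed to between 4474652 and 25461110 per library. Libraries of 1 age differed by more than sampling noise in all pairs, and none was a copy of another.

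The genes are known from fetal liver or from imprinted growth control. Afp encodes alpha-fetoprotein, the main serum protein of the fetus, which hepatocytes stop making after birth. Igf2 encodes a fetal growth factor, Igf2r the receptor that removes it, and Dlk1 a membrane protein of hepatoblasts related to Notch ligands. H19 and Meg3 are long non-coding RNAs expressed from the maternal chromosome, and Peg3 and Plagl1 encode zinc finger proteins expressed from the paternal one. Lin28b encodes an RNA-binding protein that blocks maturation of let-7 microRNAs in fetal cells. At imprinted genes, DNA methylation set in the germ line at a control region marks 1 parental copy. Proteins such as CTCF bind the unmethylated copy, and ZFP57 binds the methylated one. Reads were not assigned to a parental copy, so the values below are sums over both.

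A few stretches of sequence show what lies in the regions that carry the account, each read 5′ to 3′ from GRCm38. Capitals mark only matches to the motifs named for that stretch. Short motifs were searched on both strands, namely a CTCF core (GGNGGCAG), ZFP57 (TGCCGC), YY1 (GCCATNTT), HNF1 (GTTAATNAT) and FOXA (TGTTTAC). Over all regions, 32.7% held the CTCF core, 20.5% ZFP57, 15.1% YY1, 4.0% HNF1 and 15.9% FOXA. A match is a description of letters and not a bound site.

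The first stretch, chr7:142580272-142580571 on the minus strand, is the proximal part of the region upstream of H19, with the CTCF core and ZFP57 in capitals.
H19 upstream: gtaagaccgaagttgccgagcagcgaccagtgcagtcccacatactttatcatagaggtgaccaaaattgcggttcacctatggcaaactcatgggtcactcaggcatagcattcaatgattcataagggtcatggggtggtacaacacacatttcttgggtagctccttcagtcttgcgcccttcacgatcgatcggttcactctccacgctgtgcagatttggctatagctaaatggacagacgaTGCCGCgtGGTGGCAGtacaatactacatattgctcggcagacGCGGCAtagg
The second, chr7:6728263-6728562 on the minus strand, lies in the Peg3 intron near the gene's start, and its capitals mark YY1 matches.
Peg3 intron: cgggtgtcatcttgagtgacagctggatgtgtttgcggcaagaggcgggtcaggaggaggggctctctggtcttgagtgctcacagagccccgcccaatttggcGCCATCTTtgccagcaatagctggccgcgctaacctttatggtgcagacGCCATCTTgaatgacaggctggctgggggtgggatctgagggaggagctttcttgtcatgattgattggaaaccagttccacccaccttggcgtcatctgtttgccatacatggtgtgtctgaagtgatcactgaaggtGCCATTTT
The third, chr17:12741486-12741785 on the plus strand, lies in an intron of Igf2r at the start of the antisense RNA Airn. Its capitals mark ZFP57 matches and a CTCF core match read on the other strand, which overlaps 1 of them.
Airn start: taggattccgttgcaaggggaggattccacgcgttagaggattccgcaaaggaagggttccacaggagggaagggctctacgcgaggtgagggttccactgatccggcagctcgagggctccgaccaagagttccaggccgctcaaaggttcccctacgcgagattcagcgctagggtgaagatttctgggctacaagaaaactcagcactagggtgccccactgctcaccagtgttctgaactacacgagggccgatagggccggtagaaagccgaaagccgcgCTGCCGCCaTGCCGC
The fourth, chr10:45486361-45486510 on the minus strand, is the upstream edge of the region at the annotated start of Lin28b, where none of the motifs matched and 78.0% of bases were G or C.
Lin28b start: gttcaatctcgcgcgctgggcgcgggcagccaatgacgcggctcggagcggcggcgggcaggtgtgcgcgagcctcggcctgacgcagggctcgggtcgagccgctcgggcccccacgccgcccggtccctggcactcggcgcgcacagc
The last, chr5:90490464-90490763 on the plus strand, is the RefSeq (GRCm38.p6) promoter of Afp from 250 bases before to 50 after its start, with the HNF1 match in capitals. No consensus region overlapped it.
Afp promoter: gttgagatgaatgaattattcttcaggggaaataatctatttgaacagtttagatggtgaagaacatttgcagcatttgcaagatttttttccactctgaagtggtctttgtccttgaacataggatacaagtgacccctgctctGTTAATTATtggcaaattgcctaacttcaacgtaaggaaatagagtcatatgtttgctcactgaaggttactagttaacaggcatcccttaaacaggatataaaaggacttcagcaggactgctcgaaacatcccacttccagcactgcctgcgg

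None of the 21 regions passed the test of aged against young liver after adjustment, and the lowest log2 fold changes of aged against young were at Lin28b, H19 and the gene body of Afp. With edgeR's quasi-likelihood test and Benjamini-Hochberg adjustment over all regions, 0 of 21 passed an adjusted p of 0.05, against 5.74% of all regions (3.3% lower and 2.44% higher in aged liver). At an unadjusted p of 0.05, 4 of the 21 passed, against 24.6% of all regions. DESeq2 likewise called 0 of the 21, against 8.42% of all regions. The lowest adjusted p, 0.059 in edgeR, belonged to Lin28b. In 6 of the 21 regions (28.6%) each aged library lay below each young one in CPM (counts scaled to library size by TMM), against 11.6% of all regions. They lay at Lin28b, H19, Afp (2 regions), the Airn start in Igf2r and the Zim1 start beside Peg3. In 0 of 21 did each aged library lie above each young one, against 10.2% of all regions. The log2 fold change of aged against young was below 0 in 16 (76.2%) and above 0 in 5 of the 21, where it was below 0 in 53.4% of all regions. Over all regions the median was -0.03, and over the 21 it was -0.29. This median was -0.40 with total counts as the scaling, which moved the median of all regions to -0.15, and -0.14 with offsets fitted on mean abundance. The 95% interval of the difference stayed within a 2-fold change in 14 regions, reached past a 2-fold decrease in 6 and past a 2-fold increase in 1.

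**Figure D1:**
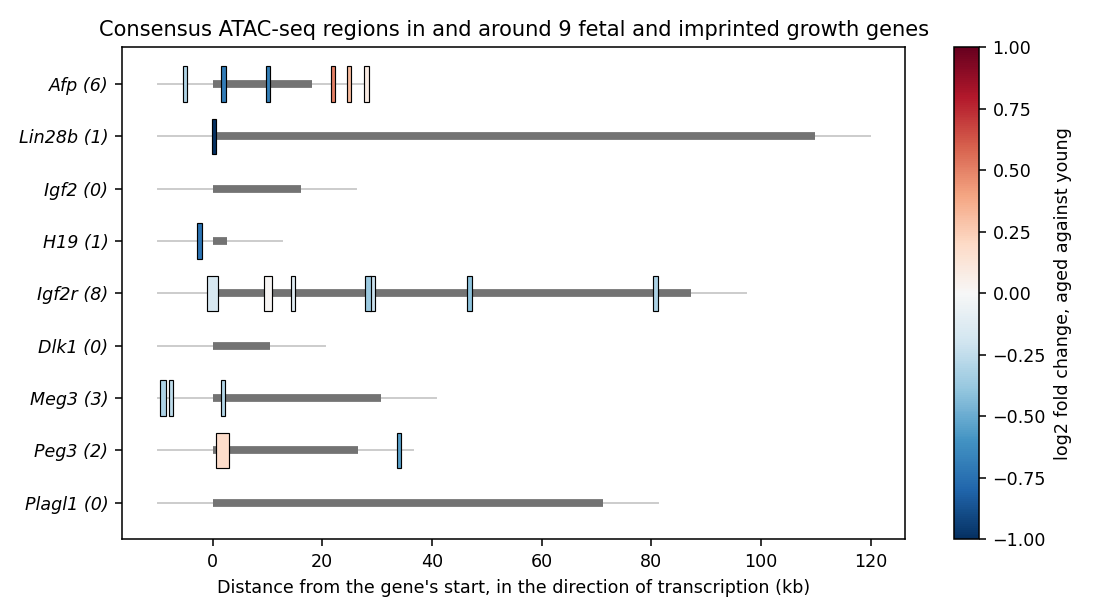
Each row is 1 gene drawn from its start in the direction of transcription (x axis, kb), with the gene body as a thick bar, the 10 kb on either side as a thin line and consensus regions as boxes coloured by log2 fold change, aged against young (narrow boxes are drawn at 0.8 kb). The number of regions is in brackets (1 of those of Igf2r is not drawn), 0 at Igf2, Dlk1 and Plagl1, and the darkest box is the region of Lin28b at -1.02.

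Most of these genes had no consensus region at their own start. A start site of the gene, taken with 200 bp on either side, overlapped a region at 2 of the 3 annotated starts of Lin28b and 1 of 3 of Igf2r. It did so at 0 of 5 starts of Afp, 0 of 7 of H19, 0 of 9 of Igf2, 0 of 9 of Dlk1, 0 of 11 of Meg3, 0 of 4 of Peg3 and 0 of 11 of Plagl1. At Peg3 the near edge of the intron region lay 703 bp from the gene's start. Among all genes of the annotation, 59.4% of protein-coding genes and 14.6% of lincRNA genes had a region at a start. The deposited set holds regions in which peaks were called in 2 or more libraries, so a gene without a region is one where too few peaks were called, and its accessibility was not measured. None of the 21 regions has a near-identical copy on the chromosomes.

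Igf2, Dlk1 and Plagl1 had 0 regions in the gene body and the 10 kb around it, where 73.9% of protein-coding genes had at least 1. The nearest region to Igf2, chr7:142678654-142679105, lay 11.8 kb away in Ins2, an insulin gene. It averaged 6.77 ± 1.48 CPM in the young libraries (SD, n = 3) and 7.17 ± 2.32 CPM in the aged ones (SD, n = 4), with a log2 fold change of 0.06 (edgeR adjusted p = 0.915). The nearest to Dlk1, chr12:109437388-109437946, was 14.9 kb away and had a log2 fold change of -0.74 (edgeR adjusted p = 0.17), with 2.99 CPM in aged replicate 1, above the lowest young library at 2.95 CPM, and the other aged libraries below it. The nearest to Plagl1, chr10:13016537-13016984, was 43.5 kb away, with a log2 fold change of -0.48 (edgeR adjusted p = 0.31). The 3 neighbours were not chosen by the rule and are given for position alone.

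At Lin28b, 1 region, chr10:45485815-45486510, covered the first start of the annotation, from which non-coding transcripts begin. The start of the protein-coding transcript, at 45470201, had none. The region held 5.92, 6.12 and 3.29 CPM in young replicates 1 to 3 and 3.16, 2.16, 1.40 and 2.80 CPM in aged replicates 1 to 4. Each aged library was below each young one, although young replicate 3 lay closer to the aged libraries than to the other young ones. Means of 5.11 ± 1.58 CPM in young (SD, n = 3) and 2.38 ± 0.774 CPM in aged libraries (SD, n = 4) gave a log2 fold change of -1.02 (standard error 0.30, 95% interval -1.66 to -0.38, edgeR adjusted p = 0.059). Over the alternatives the adjusted p in edgeR ran from 0.0385, with total counts as the scaling, to 0.234, with offsets fitted on mean abundance, and it was 0.04 without young replicate 3. Aged libraries held 6 to 36 counts here. Of its bases, 77.9% were G or C, the highest share among the 20 regions shown.

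H19 had 1 region, chr7:142580272-142580759, 2.1 kb upstream of its start and outside any annotated gene. In this stretch lies the differentially methylated region that controls Igf2 and H19, where CTCF on the maternal copy keeps distal enhancers from Igf2. The region held 1 CTCF core match, found in 18.1% of the 9293 regions of like length (within 20%), and 2 ZFP57 matches, a number reached in 1.14% of them. Young libraries had 2.41, 3.17 and 4.11 CPM, and aged libraries 2.02, 1.18, 1.87 and 2.04 CPM. The groups did not overlap, and the log2 fold change was -0.74 (standard error 0.30, 95% interval -1.39 to -0.10, edgeR adjusted p = 0.146), with an adjusted p between 0.101 and 0.53 over the alternatives and a value of -0.43 with offsets fitted on mean abundance. Only 8.8% of all regions had fewer CPM per kb, and aged libraries held 6 to 23 counts in it. Between H19 and Igf2, 72.6 kb apart, lay 2 regions, this one included.

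Afp had 6 regions, 1 upstream, 2 in the gene body and 3 downstream, and they differed in direction. The 2 in the gene body were weak. That 2.03 kb into the gene, chr5:90492556-90492973, overlaps a coding exon and had 2.96, 3.29 and 3.45 CPM in young and 2.02, 2.75, 1.87 and 1.15 CPM in aged libraries. The other, 10.10 kb in (chr5:90500597-90501086), is intronic and had 3.61, 3.97 and 4.60 CPM in young and 2.55, 2.16, 2.80 and 2.29 CPM in aged libraries. In both, each aged library was below each young one. The log2 fold changes were -0.70 (standard error 0.30, edgeR adjusted p = 0.168) and -0.68 (standard error 0.25, edgeR adjusted p = 0.12). With offsets fitted on mean abundance both were -0.40 (edgeR adjusted p = 0.554 and 0.475).

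The downstream regions of Afp, towards its neighbour Afm, which encodes the vitamin E-binding protein afamin, lay on the other side of 0. That 21.93 kb from the Afp start had 7.41, 6.69 and 4.77 CPM in young and 7.12, 14.5, 9.57 and 6.11 CPM in aged libraries. Aged replicate 2 was the highest and the groups overlapped (log2 fold change 0.50, 95% interval -0.11 to 1.1, edgeR adjusted p = 0.294). Without that library the log2 fold change was 0.22 (edgeR adjusted p = 0.645). The region 24.90 kb from it, at the start of the antisense gene Gm43449, had a log2 fold change of 0.32 (edgeR adjusted p = 0.351, and 0.18 without aged replicate 3), with 2 aged libraries above each young one. The region of Afp with the highest mean CPM, though not per kb, was chr5:90518298-90519309 at the start of Afm. It had 12.3, 14.2 and 19.9 CPM in young and 17.3, 18.8, 16.3 and 12.2 CPM in aged libraries. Its log2 fold change of 0.08 (edgeR adjusted p = 0.843) was -0.04 with total counts. Of the 20 regions whose values are shown, this was the 1 with an HNF1 match, a motif found in 4.0% of its 14221 regions of like length. The region 5.04 kb upstream of Afp, in the stretch that holds its distal enhancers, had a log2 fold change of -0.30 (95% interval -0.71 to 0.12, edgeR adjusted p = 0.364), which was -0.13 without young replicate 2 and -0.45 without young replicate 3. Summed over the 6 regions, the starts of Gm43449 and Afm included, the young libraries reached 51.3 ± 2.2 CPM (SD, n = 3). The aged ones reached 52.1 ± 7.86 CPM (SD, n = 4). In this sum the Afm start averaged 15.5 CPM in young and 16.2 CPM in aged libraries. The 2 gene-body regions averaged 3.23 and 4.06 CPM in young and 1.94 and 2.45 CPM in aged libraries.

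Igf2r had 8 regions. Its promoter region, chr17:12768605-12770634, had 20, 20.6 and 18.1 CPM in young and 19.9, 14.5, 18.0 and 17.2 CPM in aged libraries. Of the aged libraries, 3 were below each young one and replicate 1 lay among them. The difference was a log2 fold change of -0.17 (standard error 0.15, 95% interval -0.49 to 0.16, edgeR adjusted p = 0.531), so a change of more than 2-fold lay outside the interval, and the fold change was -0.09 without aged replicate 2. The region also covers the start of Gm23833, a predicted non-coding RNA, so their accessibility cannot be told apart.

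Airn is a paternally expressed antisense RNA whose start lies in an intron of Igf2r and whose transcription silences Igf2r on the same chromosome. The region at its start, chr17:12740871-12741798, held 3 ZFP57 matches, a number reached in 1.31% of the 13959 regions of like length. It had 6.48, 5.33 and 5.26 CPM in young and 4.92, 4.90, 4.2 and 3.44 CPM in aged libraries. Each aged library was below each young one, and the log2 fold change was -0.37 (standard error 0.23, edgeR adjusted p = 0.356), or -0.14 with offsets fitted on mean abundance (edgeR adjusted p = 0.809). Per kb, the Igf2r promoter had 9.64 CPM in young and 8.56 CPM in aged liver, and the Airn start 6.13 and 4.70 CPM.

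Among the other regions of Igf2r, the largest fold change was in an intron 46.85 kb from the start, -0.41 (95% interval -1.12 to 0.30, edgeR adjusted p = 0.473), with 3.89, 2.34 and 1.81 CPM in young and 1.49, 2.94, 1.87 and 1.91 CPM in aged libraries. Young replicate 1 was the highest, and without it the value was -0.08, as against -0.26 without aged replicate 1 and -0.09 with offsets fitted on mean abundance. The other 4 regions in the gene body had log2 fold changes from -0.32 to 0.01 and groups that overlapped.

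Meg3 had 3 regions, 1 in the gene and 2 upstream towards Dlk1, with log2 fold changes of -0.31, -0.26 and -0.29. The strongest, chr12:109531447-109532580, is at the start of the predicted gene Gm27528, 8.99 kb before Meg3. It had 20.5, 14.7 and 17.9 CPM in young and 19, 13.5, 11.9 and 11.6 CPM in aged libraries (standard error 0.20, 95% interval -0.73 to 0.12, edgeR adjusted p = 0.36). Of the aged libraries, 3 were below each young one and replicate 1 was not. Leaving out aged replicate 1 gave -0.51, leaving out aged replicate 4 gave -0.20, and leaving out young replicate 1 gave -0.18. The region 1.87 kb into Meg3 overlaps an exon and had 4.72, 4.99 and 2.30 CPM in young and 3.60, 2.75, 3.97 and 3.18 CPM in aged libraries, so young replicate 3 was the lowest of all. This exonic region held 3 CTCF core matches, a number reached in 0.36% of the 10450 regions of like length. Its log2 fold change of -0.29 was -0.02 with offsets fitted on mean abundance, -0.10 without young replicate 2 and -0.50 without young replicate 3. The region 7.62 kb before Meg3, at -0.26, was at -0.02 without young replicate 3 and -0.05 without aged replicate 4. It was at -0.46 without young replicate 2 and -0.43 without aged replicate 3. Between Dlk1 and Meg3, 77.7 kb apart, lay 5 regions, the 2 upstream ones included.

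Peg3 had the most accessible of the 20 regions shown. It lies 1.86 kb into the gene in the first intron, chr7:6727408-6729728, where 97.0% of all regions had fewer CPM per kb. YY1, a zinc finger protein, is known to bind a cluster of sites in this intron. The region held 11 YY1 matches, a number reached in 0.02% of the 4003 regions of like length, itself included, and 5 ZFP57 matches, reached in 1.85%. Young libraries had 127, 115 and 66.3 CPM, and aged libraries 131, 103, 118 and 117 CPM. Young replicate 3 was the lowest and the rest lay together. The log2 fold change of 0.18 (standard error 0.18, 95% interval -0.20 to 0.56, edgeR adjusted p = 0.569) was -0.04 without young replicate 3 and -0.14 with offsets fitted on mean abundance.

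Downstream of Peg3, the region chr7:6696235-6696651 covers the start of Zim1, a maternally expressed zinc finger gene of the same domain. It had 9.44, 9.15 and 9.04 CPM in young and 7.82, 8.63, 5.37 and 3.31 CPM in aged libraries. The young libraries were close together and each aged library was lower, with aged replicate 4 the lowest. This gave a log2 fold change of -0.54 (standard error 0.27, 95% interval -1.11 to 0.04, edgeR adjusted p = 0.233), and one of -0.31 without aged replicate 4.

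**Figure D2:**
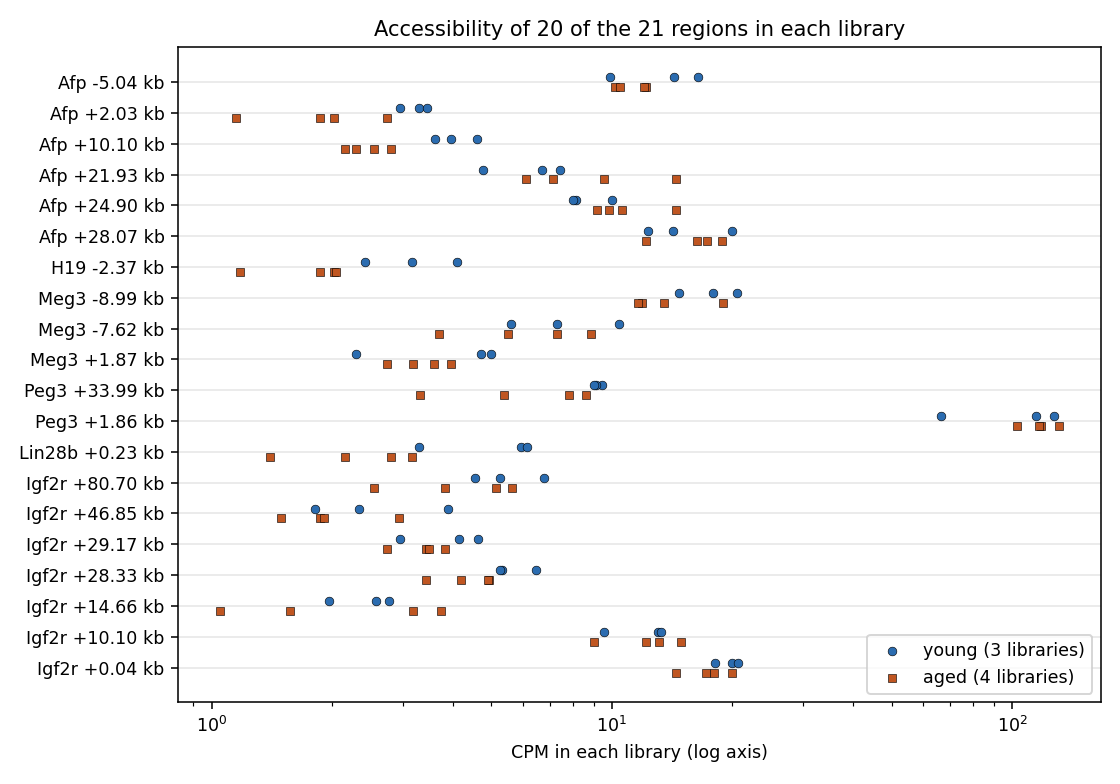
Each point is the CPM of 1 library (x axis, log scale) at 20 of the 21 regions (y axis, named by gene and by the distance of the region's middle from the gene's start), with 3 young libraries as circles and 4 aged ones as squares. Aged squares lie left of all young circles in 6 rows, and the Peg3 intron region stands apart at 66.3 to 131 CPM.

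**Figure D3:**
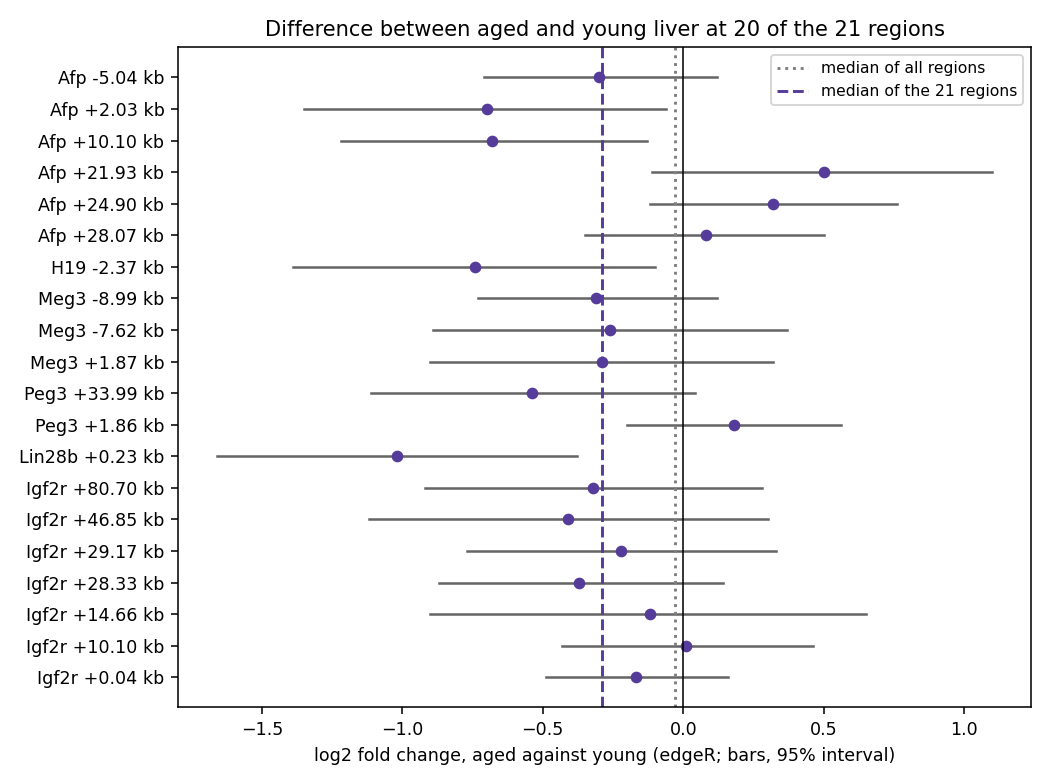
Points are log2 fold changes of aged against young liver from edgeR, with 95% intervals as bars, at 20 of the 21 regions; the dashed line is the median of the 21 (-0.29) and the dotted line that of all regions (-0.03). The lowest point is Lin28b at -1.02 and the highest the region 21.93 kb from the Afp start at 0.50.

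Because weaker regions had lower log2 fold changes across the whole data set, the 21 regions were set beside regions of like abundance. In deciles of mean log2 CPM the median of all regions ran from -0.33 in the weakest to 0.28 in the strongest decile, and the share with each aged library below each young one ran from 19.2% to 0.5%. Of the 21 regions, 4 were in the weakest decile and 2 in the strongest. The 15 regions below the median of their own decile included Lin28b (-1.02 against -0.25), H19 (-0.74 against -0.33), the Zim1 start (-0.54 against -0.14) and both gene-body regions of Afp (-0.70 against -0.33 and -0.68 against -0.27). By construction, a decile holds as many regions below its median as above it. The 7 regions under 5 CPM in young liver had a median of -0.41 and the 14 others -0.21. The part that abundance plays in these values was not tested.

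**Figure D4:**
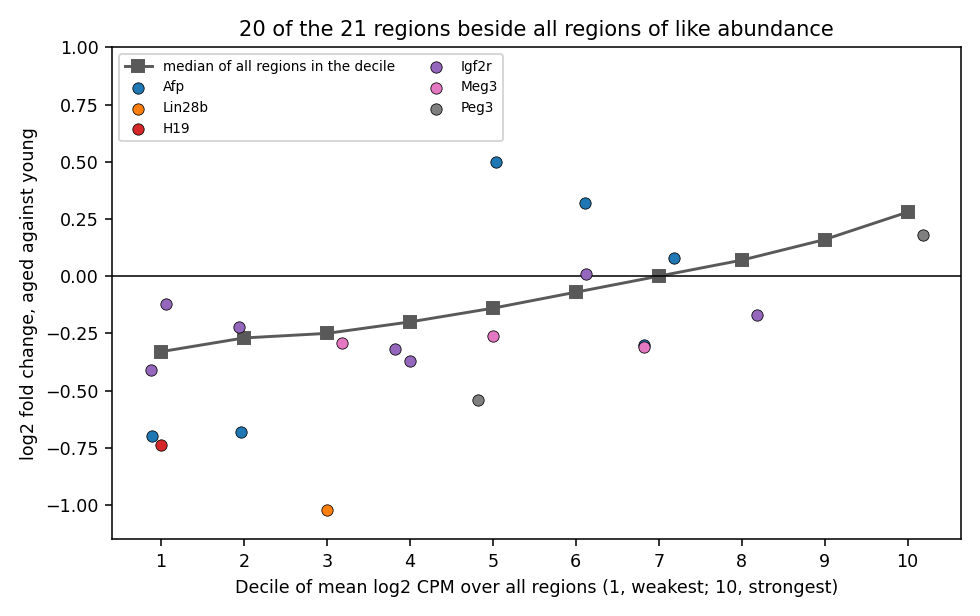
The log2 fold change of 20 of the 21 regions (y axis, coloured by gene, spread sideways within a decile) is plotted against its decile of mean log2 CPM over all regions (x axis, 1 weakest), with squares for the median of all regions in a decile. The squares climb from -0.33 to 0.28, and Lin28b, H19 and the gene-body regions of Afp lie below them.

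Other genes of the same pathways were read from the same fit, each by its most accessible promoter region (start site with 200 bp on either side). Over the 16593 genes with such a region, 4.92% were more and 1.77% less accessible in aged liver, and the median log2 fold change was 0.12. All 13 regulators of Afp in liver had a promoter region, and 2 rose, 0 fell, with a median of 0.23. Onecut1, a transcription factor of hepatoblasts, rose from 128 ± 19.7 CPM in young (SD, n = 3) to 236 ± 48.4 CPM in aged libraries (SD, n = 4), by 0.88 on the log2 scale (edgeR adjusted p = 0.012), and Foxa2, a pioneer factor, rose by 0.49 (edgeR adjusted p = 0.0354). Both lost the call with offsets fitted on mean abundance, where Onecut1 was at 0.45 (edgeR adjusted p = 0.217) and Foxa2 at 0.14 (edgeR adjusted p = 0.529). The Afp repressors Zbtb20 and Zhx2, named after their values were seen, had 0.54 (edgeR adjusted p = 0.129) and 0.02 (edgeR adjusted p = 0.948). With offsets fitted on mean abundance they had 0.16 and -0.23 (edgeR adjusted p = 0.658 and 0.421). Young replicate 3 held 77.4 CPM at Zbtb20, against 159 and 152 CPM in young replicates 1 and 2.

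Of 13 genes that handle IGF2 and related ligands, 10 had a promoter region, and 1 rose, 0 fell. That was Igf1, the postnatal growth factor made by liver, from 73.5 ± 28.9 CPM in young (SD, n = 3) to 142 ± 20.7 CPM in aged libraries (SD, n = 4), by 0.97 on the log2 scale (edgeR adjusted p = 0.0196), and had 0.60 with abundance offsets (edgeR adjusted p = 0.199). Of 16 genes of the LIN28 and let-7 pathway and the IGF2 mRNA-binding proteins, 11 had a promoter region, and 1 rose, 0 fell. Dgcr8, a partner of Drosha in microRNA processing, had 44.4, 47.0 and 44.4 CPM in young and 63.4, 60.4, 60.2 and 59.3 CPM in aged libraries, a log2 fold change of 0.42 (edgeR adjusted p = 0.0311), and had 0.20 with abundance offsets (edgeR adjusted p = 0.345). Lin28a, Trim71, Igf2bp1, Igf2bp3 and Hmga2, which are fetal genes of this pathway, had no promoter region.

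Among 20 other fetal liver and oncofetal genes, 10 had a promoter region and 0 passed the test, and their median was -0.08 on the log2 scale. The largest differences were -0.73 at Epcam, a surface protein of hepatoblasts and bile duct cells (edgeR adjusted p = 0.116), and -0.40 at Sox4 (edgeR adjusted p = 0.191). With offsets fitted on mean abundance Epcam was at -0.44 and Sox4 at -0.33, and Epcam averaged 3.89 CPM in young liver. Of 47 other imprinted genes, 28 had one and 0 passed, with a median of -0.10, and the lowest were Mkrn3 at -0.66 (edgeR adjusted p = 0.273) and Phlda2, a brake on placental growth, at -0.65 (edgeR adjusted p = 0.0987). Abundance offsets put Mkrn3 at -0.45 and Phlda2 at -0.56, and Mkrn3 averaged 6.33 CPM in young liver. Airn and Zim1 are in this list too, and Zrsr1 shares 1 region with Commd1, inside whose intron it lies. Of 18 imprint control proteins, 16 had one and 0 passed, with a median of 0.19. The largest were -0.70 at Zfp57 (edgeR adjusted p = 0.188) and 0.53 at Zfp445 (edgeR adjusted p = 0.193), which encode the zinc finger proteins that protect imprints. Under abundance offsets Zfp57 was at -0.36 and Zfp445 at 0.52, and Zfp57 averaged 2.59 CPM in young liver.

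**Figure D5:**
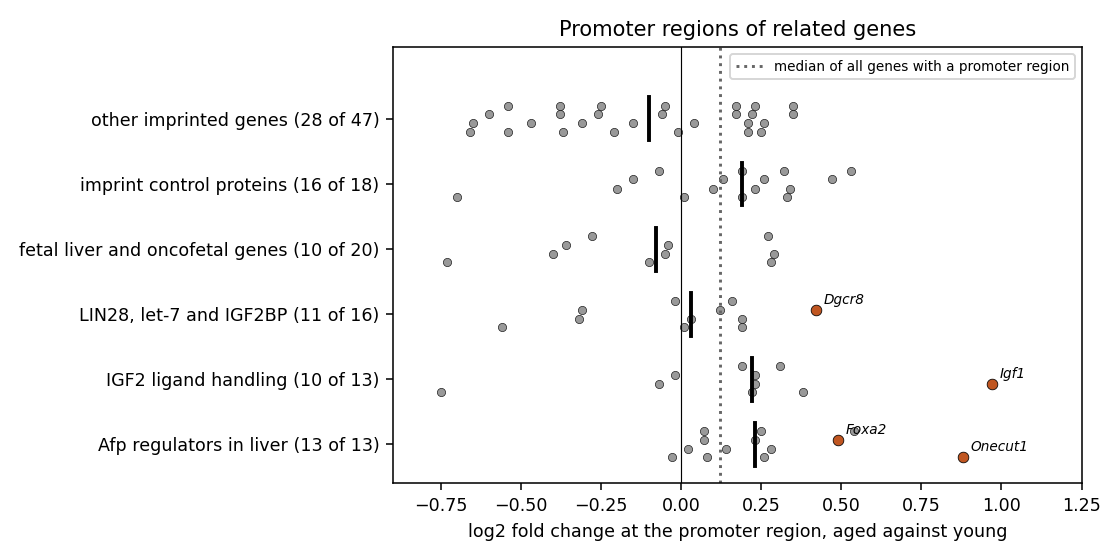
Each point is the log2 fold change, aged against young, at the promoter region of 1 gene (x axis) in 6 lists of related genes (y axis, genes with a promoter region of all genes listed); orange points passed an adjusted p of 0.05, black bars are list medians and the dotted line is the median of all genes (0.12). The 4 orange points are Onecut1, Igf1, Foxa2 and Dgcr8, all above 0.

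Liver holds several cell types, and in bulk tissue fewer cells of a type and less accessibility per cell cannot be told apart. All 6 hepatocyte markers had a promoter region, summing to 442 to 562 CPM in young and 549 to 728 CPM in aged libraries, and Apoa1 among them rose by 0.53 on the log2 scale (edgeR adjusted p = 0.0331), a value of 0.07 with offsets fitted on mean abundance (edgeR adjusted p = 0.783). The 4 stellate cell markers of 6 with a region summed to 23.8 to 28.4 CPM in young and 14.5 to 22.2 CPM in aged libraries, each aged one lower. Reln made up most of this sum, at 18.7 ± 2.1 CPM in young (SD, n = 3) and 11.7 ± 2.67 CPM in aged libraries (SD, n = 4), with a log2 fold change of -0.63 (edgeR adjusted p = 0.0586), and Colec11 stood at -0.48, Lrat at -0.22 and Hand2 at 0.21. Endothelial markers (4 of 6 with a region) summed to 67.4 to 75.0 and 53.2 to 89.0 CPM, cholangiocyte markers (3 of 6) to 43.8 to 52.0 and 39.4 to 56.9 CPM, and the macrophage marker Clec4f (1 of 6) had 2.22 to 2.65 and 0.588 to 2.80 CPM. Stab2, at 0.05 on the log2 scale, made up most of the endothelial sum, with Cdh5 at -0.43, Kdr at -0.34 and Clec4g at -0.19. Sox9, at -0.05, made up most of the cholangiocyte sum, with Epcam at -0.73 and Spp1 at 0.15. None of 6 lymphocyte and blood markers had a region. The part of cell composition in the values above was not tested.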

How the data were processed

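The authors deposited raw counts of reads per consensus region, without normalization. According to the submitters' notes and the paper, nuclei were prepared in a buffer with DNase I and tagmented by Omni-ATAC, reads were trimmed with cutadapt 1.13, aligned to GRCm38 with Bowtie2 2.4.1 and filtered (mapping quality over 10, duplicates and mitochondrial reads removed), peaks were called per library with MACS2 2.2.7, and featureCounts recorded reads in non-blacklisted regions called in 2 or more libraries, which leaves out sites open in 1 library.

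From these counts, all 55680 regions were fitted with edgeR 4.0.16 (TMM, quasi-likelihood test, age as the factor, prior count 2, Benjamini-Hochberg). Standard errors come from the F statistic, and 95% intervals use its degrees of freedom. CPM are counts divided by the TMM-scaled totals. The fit was tested on simulated data. Counts range from 4474652 to 25461110 per library, and intervals at low counts are wide.

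The genes, lists and motifs were chosen with earlier results of these data known. Named regions are, per gene, the promoter region, the strongest in mean CPM and that of largest fold change, taken for Igf2r among the 7 regions whose values are reported. The Airn start, the Afp regions 10.10, 21.93 and 24.90 kb from its start and upstream of it, and the other 2 regions of Meg3 were added after their values were seen. From each list, called genes or else the 2 largest are named. Alternatives were DESeq2 1.42.0, other scalings, filters, omitted or summed samples and a replicate block. Of the 8 regions of Igf2r, 1 is counted among the 21 but its own values are not reported here. Expression and methylation were not analysed here.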

Additional observations from a re-analysis of the deposited data

How the results depend on the processing

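All settings named here were chosen with earlier results of these data known, and the cause of each shift was not tested unless its construction shows it. Of 435 values of single regions under other settings, 416 kept their direction and side of the threshold. The count of regions less accessible in aged liver, 0 in the main fit, was 1 with total counts in regions and 0 to 1 when single libraries were left out. That region was Lin28b, with a log2 fold change of -1.13 (edgeR adjusted p = 0.0385) with total counts and -1.20 (edgeR adjusted p = 0.04) without young replicate 3. The median over the 21 regions, -0.29, was -0.14 with offsets fitted on mean abundance and -0.35 to -0.15 when single libraries were left out, where the SD between samples of 1 age was 0.111.

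With the replicate block, 1 region was less accessible, again Lin28b at -1.11 (edgeR adjusted p = 0.0387), and 4078 regions were called in all against 3198. The correlations of same-numbered samples were -0.119, 0.056 and 0.03, and those of other pairs ran from -0.151 to 0.232. These values gave no sign that the numbers pair the samples, but cannot exclude it. Of all regions, the main fit called 1360 higher and 1838 lower in aged liver, total counts 543 and 2931, DESeq2 2760 and 1931, RLE size factors 1950 and 1754, GC offsets 3499 and 2043, and abundance offsets 264 and 545. The total was 1327 with at least 10 counts in every sample, 188 to 4230 without single libraries and 962 to 4742 with aged pairs summed.

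At 5 regions near 0 the sign changed without passing the threshold. The Afm start was -0.04 with total counts and -0.05 to 0.29 without single libraries. The Peg3 intron was -0.14 with abundance offsets and -0.04 to 0.36 without single libraries. The Igf2r region 29.17 kb from the start was 0.05 with abundance offsets, and that 14.66 kb from it was 0.21 there and -0.37 to 0.17 without single libraries. The region 10.10 kb from it was -0.10 with total counts, -0.03 with at least 10 counts in every sample, -0.10 to 0.14 without single libraries, and -0.01, -0.04, -0.04 and -0.0035 with aged pairs summed.

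For the gene lists, DESeq2 gave 2 IGF2 ligand handling genes, Igf1 and Igfals, and 1 imprint control gene, Smc3, higher in aged liver (DESeq2 adjusted p = 0.0371). Offsets fitted on mean abundance gave 0 Afp regulators, 0 IGF2 ligand handling genes, 0 LIN28 and let-7 genes and 1 imprint control gene, Dnmt3a, lower in aged liver at -0.48 (edgeR adjusted p = 0.0328). Depth limits the weakest regions, since that of H19 held 6 to 84 counts and that of Lin28b 6 to 162.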
